A study of Mus musculus with 2 samples.

Results

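Organic ion transporters and ATP-binding cassette (ABC) exporters of the mouse liver are described here: the genes whose symbols begin with Slco, Slc22a, Slc47a, Abcb, Abcc or Abcg and a digit, leaving out Abcb11, the canalicular bile salt pump. The symbols were read from a RefSeq gene table through the accession that each array probe carries. The rule found 68 genes in that table, and 66 of them had a probe among the 20283 named genes on the arrays (Slc22a30 and Slco6b1 had no matched probe). They comprised 14 Slco, 25 Slc22a, 2 Slc47a, 9 Abcb, 10 Abcc and 6 Abcg genes. The rule used names alone and no measured value, but the members were chosen with earlier results of these data known.

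Total RNA from pooled mouse liver was compared on 2 two-colour Agilent arrays. On each array, wild-type C57B6J liver (WT) was labelled with Cy3, and liver of CREBH KO mice on the C57B6J background, which lack the liver- and gut-enriched transcription factor encoded by Creb3l3, was labelled with Cy5. The mice of the first array were fed ad lib and those of the second were fasted for 24 h. The 4 pools were thus WT fed, KO fed, WT fasted and KO fasted. Each pool was measured once, without a dye swap, and the number, sex and age of the mice in a pool are not given in the sources used here. No difference below therefore has a replicate check or a test, a dye effect cannot be told apart from genotype, and a gene is counted as higher or lower only where 2 pools differed at least 2-fold (a log2 ratio of 1). Smaller differences are given as values, and the words higher or lower beside them name the sign alone. An error between the spots of a probe could be read from probes printed several times. Their log2 ratios had a median SD of 0.09 in fed liver, over 214 probes, and of 0.08 in fasted liver, over 241. Among the members only 1 probe, for Abcc5, was printed 10 times, and every other member rests on single spots. The scanner software's own error for 1 spot, given for some genes below, was larger. Both errors are technical and say nothing about the spread between mice. The question the design poses is how hepatic transcripts depend on CREBH in the fed and in the fasted state.

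Hepatocytes take up drugs, hormones, bile acids and organic ions from the blood through organic anion transporting polypeptides (OATPs, Slco genes) and through organic cation, carnitine and organic anion carriers of the Slc22a family. They pass them on to bile or back to blood through ABC exporters, which hydrolyse ATP, and through the proton antiporters of the Slc47a family (MATEs). Some Abcb proteins sit in mitochondria or lysosomes instead, and Abcc8 and Abcc9 are regulatory subunits of potassium channels. Several of these genes lie side by side in the genome, in the order of the RefSeq table: Slco1a4 next to Slco1a1, Slco1a6 next to Slco1a5, Slc22a5 next to Slc22a21 and Slc22a4, Abcb1a next to Abcb1b and Abcb4, and Abcg5 next to Abcg8.

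Of the 7 genes that passed 2-fold in a comparison of pools where they were above background, which leaves out Slc22a21 and its lower bound below, 5 had a promoter in the RefSeq table of build GRCm38.p6. The 250 bases before the start of 4 of them are shown, because these genes carry the contrasts below: Slco1a4 and Abcb1b are those that differed most between KO and WT among the 5, and Slc22a5 and Abcb4 those higher after fasting in both genotypes. The positions are chr6:141856221-141856470 (- strand), chr5:8797897-8798146 (+ strand), chr11:53891704-53891953 (- strand) and chr5:8893471-8893720 (+ strand). Capitals mark the matches to the motifs searched.
Slco1a4: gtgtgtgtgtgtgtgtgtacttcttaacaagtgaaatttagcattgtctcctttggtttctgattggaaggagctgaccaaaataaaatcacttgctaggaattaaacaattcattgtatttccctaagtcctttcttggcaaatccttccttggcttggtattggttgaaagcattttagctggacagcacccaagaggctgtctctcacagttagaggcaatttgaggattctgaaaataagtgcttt
Abcb1b: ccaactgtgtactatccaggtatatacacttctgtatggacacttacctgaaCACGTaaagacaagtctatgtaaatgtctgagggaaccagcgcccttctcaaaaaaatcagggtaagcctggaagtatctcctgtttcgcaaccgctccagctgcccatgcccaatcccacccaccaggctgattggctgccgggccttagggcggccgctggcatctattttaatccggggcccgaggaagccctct
Slc22a5: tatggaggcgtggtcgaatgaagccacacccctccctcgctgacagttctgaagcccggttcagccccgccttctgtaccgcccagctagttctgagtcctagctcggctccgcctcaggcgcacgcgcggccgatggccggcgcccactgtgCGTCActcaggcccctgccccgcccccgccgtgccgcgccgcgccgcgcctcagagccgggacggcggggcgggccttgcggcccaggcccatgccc
Abcb4: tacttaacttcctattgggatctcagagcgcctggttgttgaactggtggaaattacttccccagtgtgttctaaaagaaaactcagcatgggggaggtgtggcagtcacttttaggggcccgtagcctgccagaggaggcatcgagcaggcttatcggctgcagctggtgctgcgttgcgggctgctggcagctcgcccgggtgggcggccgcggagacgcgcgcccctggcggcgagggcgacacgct
Searched on both strands were the nuclear receptor core AGGTCA and its direct repeat spaced by 1 base (DR1), the HNF1 core GTTAAT and its palindrome (GTTAAT, any base, ATTAAC), the cyclic AMP response element core TGACG and the E-box core ACGTG. Each of the longer motifs contains its core, and TGACG and ACGTG can overlap. The Slc22a5 window held TGACG once, on the reverse strand at position -97 from the start, and the Abcb1b window held ACGTG once, on the reverse strand at -198. None of the 6 motifs was found in the Slco1a4 and Abcb4 windows. Over all 32851 promoters of the table and this length, 17.8% held TGACG and 16.6% held ACGTG, against 7 (13.7%) and 5 (9.8%) of the 51 member genes with a promoter. AGGTCA was in 9 (17.6%) of these members against 14.0% of all promoters, and GTTAAT in 4 (7.84%) against 6.43%. The 2 kinds of share are not the same measure: the table was counted by promoter, and a member gene counted where any of its listed promoters held the motif. The direct repeat and the palindrome were in none of the 51, and in 0.0335% and 0.00913% of all promoters.

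A gene counted as measured in a comparison where its brightest probe was well above background in both channels compared. In all 4 pools this held for 38 of the 66 genes: 6 Slco, 11 Slc22a, 1 Slc47a, 8 Abcb, 8 Abcc and 4 Abcg genes. Another 5 (Abcc1, Slc22a13, Slc22a21, Slc22a26 and Slco4a1) were above background in 1 to 3 pools. The remaining 23 were not well above background in any pool. These were Slco1a5, Slco1a6, Slco1c1, Slco4c1, Slco5a1, Slco6c1 and Slco6d1 among the OATPs. In the Slc22a family they were Slc22a2, Slc22a3, Slc22a8, Slc22a12, Slc22a14, Slc22a16, Slc22a19, Slc22a20, Slc22a22, Slc22a27 and Slc22a29. Slc47a2, Abcb5, Abcc12, Abcg3 and Abcg4 completed the group. The kidney carriers Slc22a2, Slc22a8 and Slc22a12 belong to it, whereas Slc22a6, the basolateral organic anion carrier of kidney, was measured near the lower limit (log2 signal 6.47 to 6.69 over the 4 pools, where the dimmest signals above background lay between 6.04 and 6.11).

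**Figure D1:**
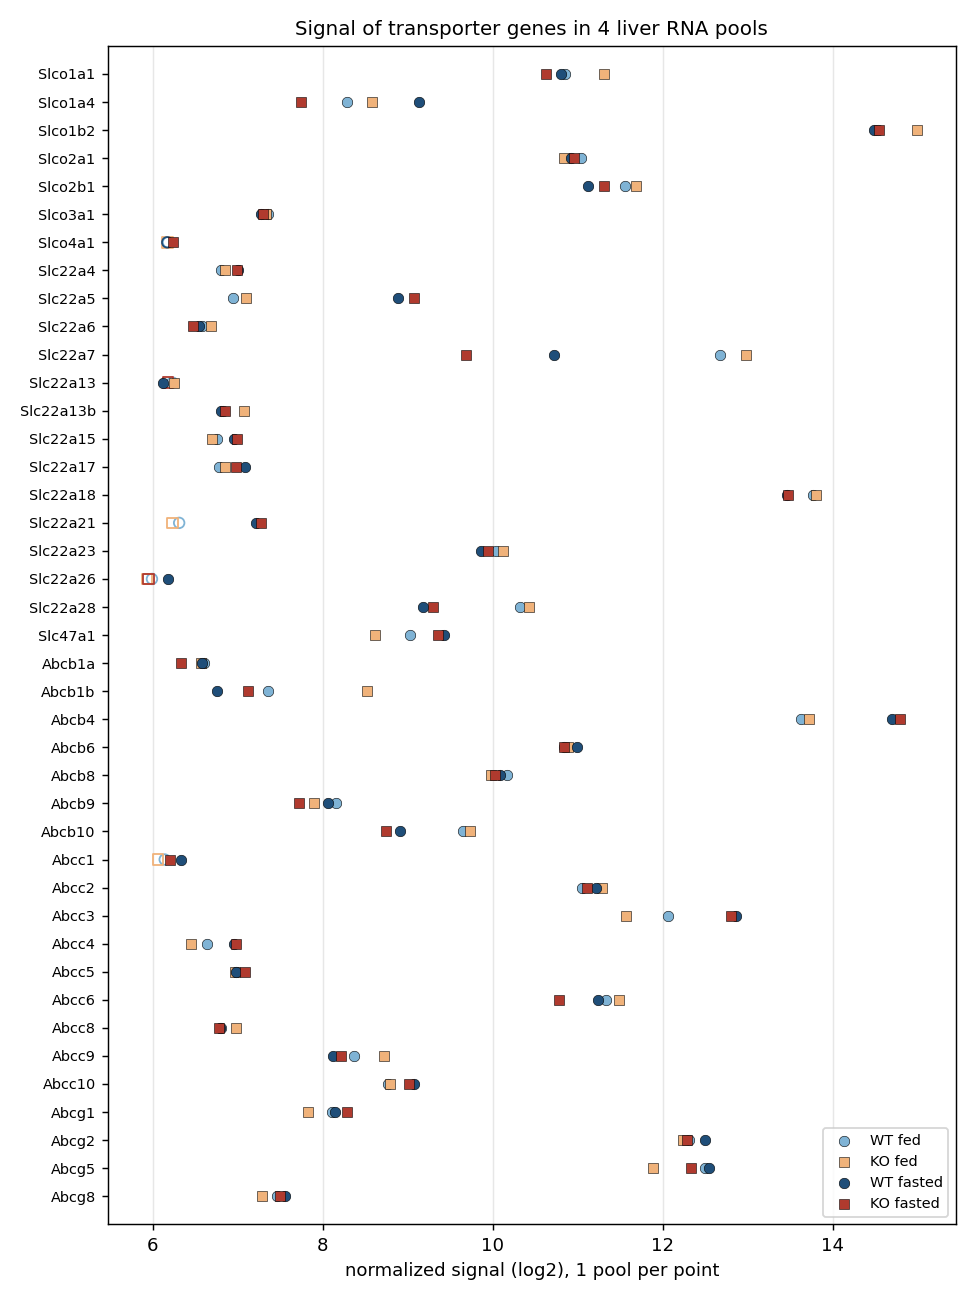
Normalized log2 signal (horizontal axis) of transporter genes above background in at least 1 pool, with 1 point for each of the 4 liver RNA pools and 1 row for each gene. Filled points are above background and open points are not. Signals of different rows come from different probes and do not rank the genes. The 4 points of Slc22a7 spread from 9.68 (KO fasted) to 12.98 (KO fed).

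Creb3l3 was read first as a check of the labels. Its log2 signal was 14.00 in WT fed, 13.12 in KO fed, 15.03 in WT fasted and 12.95 in KO fasted liver. The KO over WT log2 ratio was thus below 0 on both arrays (-0.88 fed, which is under 2-fold, and -2.07 fasted). Whether the probe lies in the deleted part is not known here. All 9 hepatocyte markers on the arrays were above background in the 4 pools, with a summed log2 signal between 19.68 and 19.75. None of 4 adipose markers and 1 of 6 kidney markers (Aqp2) were above background throughout. Kupffer cell markers, 9 of 9 above background, were lower in KO fed liver (summed log2 signal 14.08, 13.64, 14.07 and 14.13 in WT fed, KO fed, WT fasted and KO fasted liver), and all 9 had a fed KO over WT ratio below 0, as did 46.9% of all measured genes. Of the pericentral hepatocyte list 8 of 9 measured genes were above 0 in the fed and 9 of 9 in the fasted KO over WT comparison, with medians of 0.44 and 0.24. Periportal genes were below 0 in 7 of 8 on both arrays, with medians of -0.25 and -0.26. Over all measured genes 46.9% were below 0 in fed and 47.3% in fasted liver. With each array scaled to the median of every gene spot, 2.62% of all genes in fed and 4.4% in fasted liver were below 0. Signs of small ratios thus depend on the scaling, and those of the Kupffer, pericentral and periportal genes are given under the main scaling only. Male-biased genes differed 2-fold between KO and WT in 1 of 11 in fed liver (Cyp7b1, 1.1) and 0 of 11 in fasted liver, and female-biased genes in 0 of 4 and 1 of 5 (Cyp3a16, -1.16), against 0.554% of all measured genes in fed and 0.791% in fasted liver. Only these 4 and 5 of the 11 female-biased genes on the arrays were measured in the 2 comparisons. In pooled tissue RNA, fewer cells of a type and less RNA per cell cannot be told apart, and the part of these shifts in the transporter values was not tested.

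In fed liver, 1 of 38 measured transporter genes differed 2-fold between KO and WT, namely Abcb1b, which was higher. Over all 11377 measured genes 0.554% passed 2-fold, 0.158% higher and 0.396% lower. The members' median log2 ratio was 0.07 against 0.01 for all measured genes, and 28 of the 38 lay within 0.25 of 0. After the fast, 2 of 40 measured members were at least 2-fold lower in KO, Slco1a4 and Slc22a7, and none was higher. The background there was 0.791% of 12262 genes in either direction, 0.359% higher and 0.432% lower. The members' median was -0.03 against 0.01, and 33 of 40 lay within 0.25 of 0. Below 0 were 14 of 38 members in fed liver, against 46.9% of all genes, and 22 of 40 in fasted liver, against 47.3%. Small ratios depend on the scaling: of the ratios of at least 0.25 in size, 6 of 10 in fed and 4 of 7 in fasted liver kept their sign under every scaling tried, and all did when all-spot centring, described below, was left out.

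**Figure D2:**
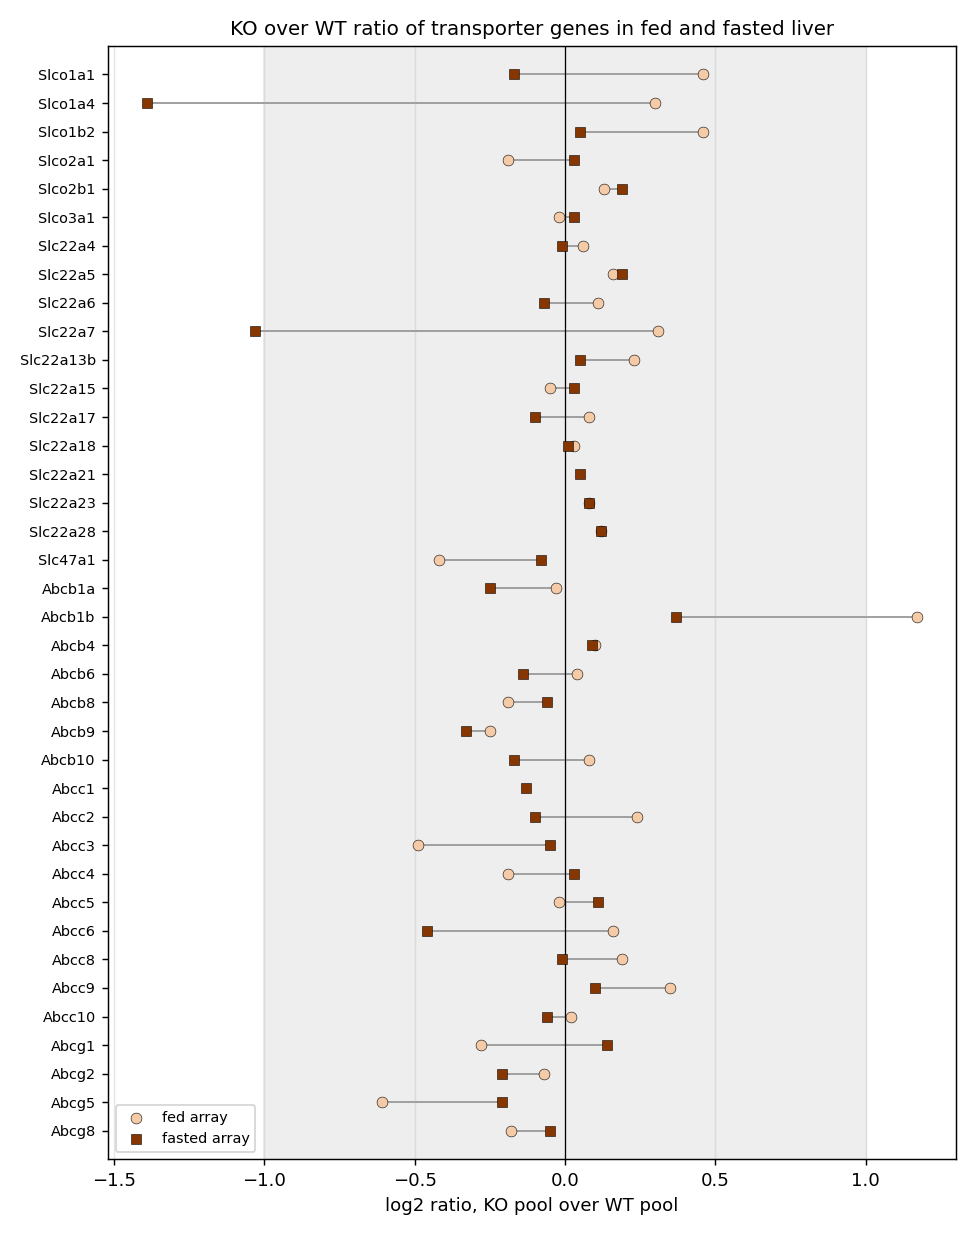
Log2 ratio of the KO pool over the WT pool (horizontal axis) for transporter genes measured on at least 1 array, with circles for the fed and squares for the fasted array and a line joining them. The grey band covers differences under 2-fold. Abcb1b (1.17, fed) lies outside it on the high side, and Slco1a4 (-1.39) and Slc22a7 (-1.03) on the low side, both fasted.

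Slco1a4, an OATP of the sinusoidal membrane that carries bile acids, steroid conjugates and cardiac glycosides and that is a known target of the xenobiotic receptor PXR, had log2 signals of 8.28 in WT fed, 8.58 in KO fed, 9.13 in WT fasted and 7.74 in KO fasted liver. The highest of the 4 pools was WT fasted and the lowest KO fasted. The KO over WT ratio was 0.30 in fed liver (1.23-fold higher) and -1.39 in fasted liver (2.61-fold lower), at rank 22 from the lowest of 12262 genes. With fasting the gene was 1.80-fold higher in WT (log2 0.85) and 1.80-fold lower in KO (-0.84). The scanner software's own ratio for this spot was 0.25 ± 0.21 (fed) and -1.76 ± 0.26 (fasted; error of its model for 1 spot). Scaling each array to the median of every gene spot, dim ones included (called all-spot centring below), gave a fasted ratio of -0.80, under 2-fold. It placed the median of the measured genes at 0.78 in fed and 0.57 in fasted liver, and relative to that median Slco1a4 stood at -1.37.

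The other OATP1 genes were shifted the same way between the states, but by less. Slco1a1, the male-predominant sinusoidal OATP, had log2 signals of 10.85, 11.31, 10.80 and 10.63 in WT fed, KO fed, WT fasted and KO fasted liver. Slco1b2, the liver-specific OATP that takes up bile acids, bilirubin conjugates and statins, had 14.53, 14.99, 14.49 and 14.54. In both, KO fed was the highest pool and the other 3 lay closer together. The KO over WT ratio was 0.46 in fed liver for both, then -0.17 for Slco1a1 and 0.05 for Slco1b2 after the fast. All-spot centring gave 1.48 and 1.75 in fed and 0.58 and 1.05 in fasted liver, for Slco1a1 and Slco1b2. Centring on the measured genes gave fed ratios of 0.78 and 1.04. From fed to fasted, KO liver was lower by 1.60-fold for Slco1a1 and 1.36-fold for Slco1b2, whereas in WT the difference was 1.03-fold for each. All 3 measured OATP1 genes had a lower KO over WT ratio in fasted than in fed liver, by -1.69 (Slco1a4), -0.63 (Slco1a1) and -0.41 (Slco1b2), and this sign was the same under all scalings tried. Slco2b1, an OATP with many substrates, had log2 signals of 11.55, 11.68, 11.12 and 11.31 in the same order, with KO over WT ratios of 0.13 and 0.19 and both fasted pools below both fed ones (-0.43 in WT, -0.37 in KO). Slco2a1, a prostaglandin carrier, Slco2b1 and Slco3a1 had fasted minus fed differences of 0.06 to 0.23.

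Slc22a7 (OAT2), a hepatic carrier of organic anions and nucleotides, had log2 signals of 12.67 in WT fed, 12.98 in KO fed, 10.72 in WT fasted and 9.68 in KO fasted liver. Both fasted pools lay below both fed pools. In the fasted state KO was 2.05-fold lower than WT (log2 -1.03), and in the fed state 1.24-fold higher (0.31). The fast was accompanied by a 3.87-fold lower signal in WT (-1.95, rank 32 from the lowest of 11442 genes) and a 9.84-fold lower signal in KO (-3.30, rank 4 of 11786). The scanner software gave 0.32 ± 0.21 and -1.12 ± 0.23 for the fed and fasted KO over WT ratios. The fasted ratio was under 2-fold with all-spot centring (-0.31) and when arrays were centred on the measured genes instead (-0.81). Relative to the median gene, all-spot centring gave -0.88. The fasted over fed differences stayed past 2-fold in both genotypes under all scalings tried.

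Slc22a5 (OCTN2), the high-affinity carnitine carrier, was set apart by feeding state and not by genotype. Its log2 signals were 6.94 in WT fed, 7.10 in KO fed, 8.88 in WT fasted and 9.07 in KO fasted liver. Both fasted pools lay above both fed pools by 3.84-fold in WT (log2 1.94, rank 31 from the highest of 11442 genes) and 3.92-fold in KO (1.97, rank 37 of 11786). The KO over WT ratios were 0.16 and 0.19. Slc22a21 (OCTN3), a carnitine carrier of the adjacent gene, was not well above background in fed liver (log2 6.31 WT, 6.23 KO) and was above it in fasted liver (7.21 WT, 7.27 KO). It was therefore at least 1.87-fold higher after the fast in WT and at least 2.05-fold in KO, taking as the fed level the higher of the probe's own signal and the dimmest signal above background. Slc22a4 (OCTN1), the ergothioneine carrier on the other side of Slc22a21, had signals of 6.80 and 6.85 fed and 7.0 and 6.99 fasted, a difference of 0.20 in WT and 0.14 in KO. Of the 3 neighbours, Slc22a5 and Slc22a21 thus were at least 2-fold higher after the fast in KO liver, and Slc22a4 was not.

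Slc22a28, a member of the rodent organic anion carrier cluster, was lower after the fast in both genotypes. Its brighter probe read 10.32 in WT fed, 10.43 in KO fed, 9.18 in WT fasted and 9.30 in KO fasted liver, a 2.20-fold lower signal in WT and in KO (log2 -1.14 in each). The other probe gave -1.66 and -1.61. KO over WT was 0.12 on both arrays. The members of this cluster have similar sequences, so probes of one may also bind RNA of another. Of its 8 adjacent genes in the table, Slc22a30 had no matched probe. Of the others only Slc22a6, Slc22a28 and, in WT fasted liver, Slc22a26 (6.18) were above background.

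Slc22a4, Slc22a6, Slc22a13b, Slc22a15, Slc22a17, Slc22a18 and Slc22a23 differed by less than 1.5-fold in each comparison. Slc22a18, an orphan carrier of an imprinted region, was 0.31 to 0.33 lower on the log2 scale after the fast in both genotypes. Slc22a15 and Slc22a17 were 0.12 to 0.30 higher after it, and Slc22a23 was 0.17 (WT) and 0.18 (KO) lower. Slc22a13b differed between KO and WT by 0.23 fed and 0.05 fasted. In fed liver 10 of the 11 measured Slc22a genes had a KO over WT ratio above 0, with a median of 0.11, but 5 of 11 did when arrays were centred on the measured genes. Over all measured genes 46.9% were below 0 in that comparison.

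Abcb1b, 1 of the 2 mouse P-glycoproteins that export hydrophobic drugs, had log2 signals of 7.36 in WT fed, 8.52 in KO fed, 6.76 in WT fasted and 7.12 in KO fasted liver. KO fed liver was the highest of the pools. KO was 2.24-fold higher than WT in the fed state (log2 1.17, rank 12 from the highest of 11377 genes) and 1.29-fold higher in the fasted state (0.37). Fasting went with a 1.52-fold lower signal in WT (-0.60) and a 2.64-fold lower one in KO (-1.40). The scanner software gave 1.73 ± 0.26 and 0.74 ± 0.23 for the KO over WT ratios, and the fed ratio stayed past 2-fold under all normalizations tried (1.1 to 1.81). Abcb1a, the adjacent gene for the other P-glycoprotein, had KO over WT ratios of -0.03 and -0.25 from signals of 6.33 to 6.60, close to the lower limit. The scanner software gave -0.38 ± 0.31 and -0.86 ± 0.28 for it.

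Abcb4, the next gene in this row, encodes the canalicular floppase that moves phosphatidylcholine into bile. Its log2 signals were 13.62 in WT fed, 13.72 in KO fed, 14.70 in WT fasted and 14.79 in KO fasted liver. Both fasted pools were above both fed pools, by 2.12-fold in WT (log2 1.08) and 2.10-fold in KO (1.07), and KO and WT differed by 0.10 and 0.09. The KO difference was 0.98 with all-spot centring. Abcb11, the bile salt pump of the same membrane that was left out of the family set, went the other way, with signals of 13.81, 13.76, 12.55 and 12.48 and fasted over fed differences of -1.26 and -1.28.

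Among the organelle members, Abcb10, a mitochondrial inner membrane protein needed for haem synthesis, had signals of 9.65 in WT fed, 9.73 in KO fed, 8.91 in WT fasted and 8.74 in KO fasted liver. It was lower after the fast by 1.67-fold in WT (-0.74) and 1.98-fold in KO (-0.98). The KO value was past 2-fold with the scanner-processed signals (-1.05), all-spot centring (-1.13) and centring on measured genes (-1.02). It was -0.42 without normalization between arrays. Abcb6, Abcb8 and the lysosomal peptide carrier Abcb9 differed by at most 0.33 in any of these comparisons.

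Abcc3 (MRP3), the basolateral exporter of glucuronides, had log2 signals of 12.06 in WT fed, 11.57 in KO fed, 12.86 in WT fasted and 12.80 in KO fasted liver. KO fed was the lowest pool and both fasted pools were above both fed ones. Fasted over fed was 1.74-fold in WT (0.80) and 2.36-fold in KO (1.24). KO over WT was -0.49 in fed liver, which turned to 0.59 with all-spot centring, and -0.05 in fasted liver. Abcc4 (MRP4), the basolateral exporter of cyclic nucleotides and sulphated steroids, was higher after the fast by 0.30 in WT and 0.53 in KO. Its log2 signals were close to the lower limit in fed liver (6.64 WT, 6.45 KO) and read 6.95 and 6.98 in fasted liver. The scanner-processed signals gave fasting differences of 0.64 in WT and 1.21 in KO. Abcc2 (MRP2), the canalicular exporter of conjugates, had 11.05, 11.29, 11.21 and 11.11 in WT fed, KO fed, WT fasted and KO fasted liver, and KO over WT ratios of 0.24 fed and -0.10 fasted.

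Abcc6, mutated in pseudoxanthoma elasticum and required for ATP release by hepatocytes, read 11.33 in WT fed, 11.49 in KO fed, 11.24 in WT fasted and 10.78 in KO fasted liver by its brighter probe, with KO fasted the lowest. That probe gave KO over WT ratios of 0.16 and -0.46, while the other gave 0.00 and -0.03, so the probes disagreed. Abcc5, whose main probe was printed 10 times, had ratios of -0.02 and 0.11, and Abcc10 had 0.02 and -0.06. The channel subunits Abcc8 and Abcc9 had fed ratios of 0.19 and 0.35 and fasted ratios of -0.01 and 0.10. Abcc1 was measured only after the fast, with KO over WT at -0.13.

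Abcg5 and Abcg8 form the sterol exporter of the canalicular membrane. Abcg5 had log2 signals of 12.50 in WT fed, 11.89 in KO fed, 12.54 in WT fasted and 12.33 in KO fasted liver, so KO fed was the lowest pool and the WT pools differed by 0.03. KO over WT was -0.61 in fed liver (1.52-fold lower, the lowest of the members) and -0.21 in fasted liver. Abcg8, its neighbour, read 7.46, 7.28, 7.55 and 7.5 in the same order of pools, with ratios of -0.18 and -0.05. Abcg1, which passes cholesterol to lipoproteins, read 8.11, 7.83, 8.14 and 8.28, with ratios of -0.28 and 0.14. Abcg2 (BCRP), the canalicular exporter of urate and sulphates, had 12.31, 12.24, 12.50 and 12.29, with ratios of -0.07 and -0.21. All 4 measured Abcg genes were below 0 in fed KO liver, as were 46.9% of all measured genes, but all 4 were above 0 with all-spot centring, where Abcg5 stood at 0.50, and 1 of 4 with centring on measured genes. Slc47a1 (MATE1), the canalicular antiporter of organic cations, had 9.03 in WT fed, 8.61 in KO fed, 9.43 in WT fasted and 9.35 in KO fasted liver. It too was lowest in KO fed liver, with a KO over WT ratio of -0.42 (0.40 with all-spot centring) and -0.08.

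More transporter genes passed 2-fold between fed and fasted pools than between genotypes, as did more genes overall. In WT liver 2 of 38 measured members were at least 2-fold higher after the fast (Slc22a5 and Abcb4) and 2 lower (Slc22a7 and Slc22a28), while 4.28% of 11442 genes passed 2-fold, 2.36% higher and 1.92% lower. In KO liver 3 of 38 were higher (Slc22a5, Abcc3 and Abcb4) and 3 lower (Slc22a7, Abcb1b and Slc22a28), against 4.68% of 11786 genes, 2.59% higher and 2.1% lower. At 1.5-fold, 21.1% of the members in WT and 31.6% in KO passed, compared with 11.8% and 13.6% of all measured genes. The fed and fasted pools of each genotype lay on different arrays, so array and feeding state cannot be told apart. The 4 comparisons use the same 4 pools and are not independent of one another.

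**Figure D3:**
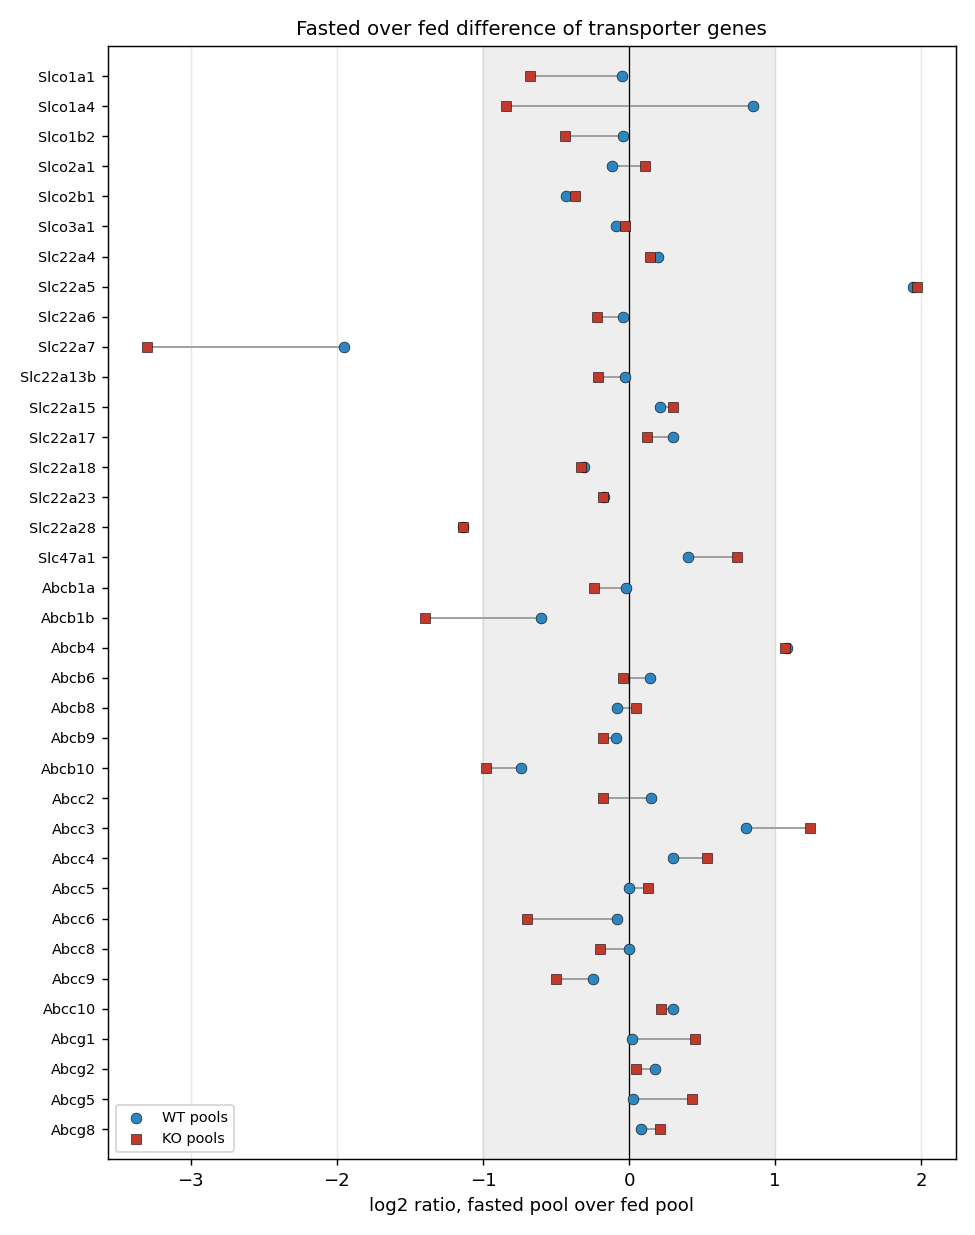
Log2 ratio of the fasted pool over the fed pool (horizontal axis) for measured transporter genes, with circles for WT and squares for KO pools and a line joining them. The grey band covers differences under 2-fold. Slc22a5, Abcb4 and Slc22a28 have circles and squares at nearly the same place, whereas for Slc22a7 (-1.95 and -3.30), Slco1a4 (0.85 and -0.84) and Abcb1b (-0.60 and -1.40) they lie apart.

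The difference between the fasted and the fed KO over WT log2 ratios, which equals the difference between the KO and the WT fasting responses, was past 2-fold in 2 of 38 members, both lower: Slco1a4 (-1.69, rank 16 from the lowest of 11291 genes) and Slc22a7 (-1.35, rank 32). Over all genes 1.37% passed, 0.771% higher and 0.602% lower. At 1.5-fold 6 of 38 members passed (15.8%), all lower, against 4.23% of all genes. Abcb1b (-0.80), Slco1a1 (-0.63) and Abcc6 (-0.62 by its brighter probe, -0.03 by the other) were among them. The highest members were Abcc3 (0.43), Abcg1 (0.42) and Abcg5 (0.40). The members' median was -0.07 against -0.01, and 23 of 38 were below 0 against 51.2% of all genes.

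Grouped by the direction of transport, 12 uptake carriers, 14 exporters and 5 organelle carriers were measured in all 4 pools. In fed liver, KO over WT was above 0 for 10 of 12 uptake carriers (median 0.14) and for 5 of 14 exporters (median -0.05), while 46.9% of all measured genes were below 0. With all-spot centring all 12 and 13 of 14 were above 0, and with measured-gene centring 8 of 12 and 6 of 14. In KO liver the fast went with lower signals for 9 of 12 uptake carriers (median -0.41) and higher signals for 10 of 14 exporters (median 0.22), and in WT liver with 9 of 12 lower (median -0.05) and 11 of 14 higher (median 0.12). Over all measured genes 48.3% were lower after the fast in KO and 48.7% in WT. The uptake carriers divided 6 to 6 in KO liver when the arrays were not normalized to each other, which moved the median of all genes to 0.46 in WT and 0.45 in KO. In WT liver 5 of 12 were lower with all-spot centring and 2 of 12 without normalization between arrays. Organelle carriers had medians between -0.14 and 0.03. The groups are small and their difference was not tested.

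**Figure D4:**
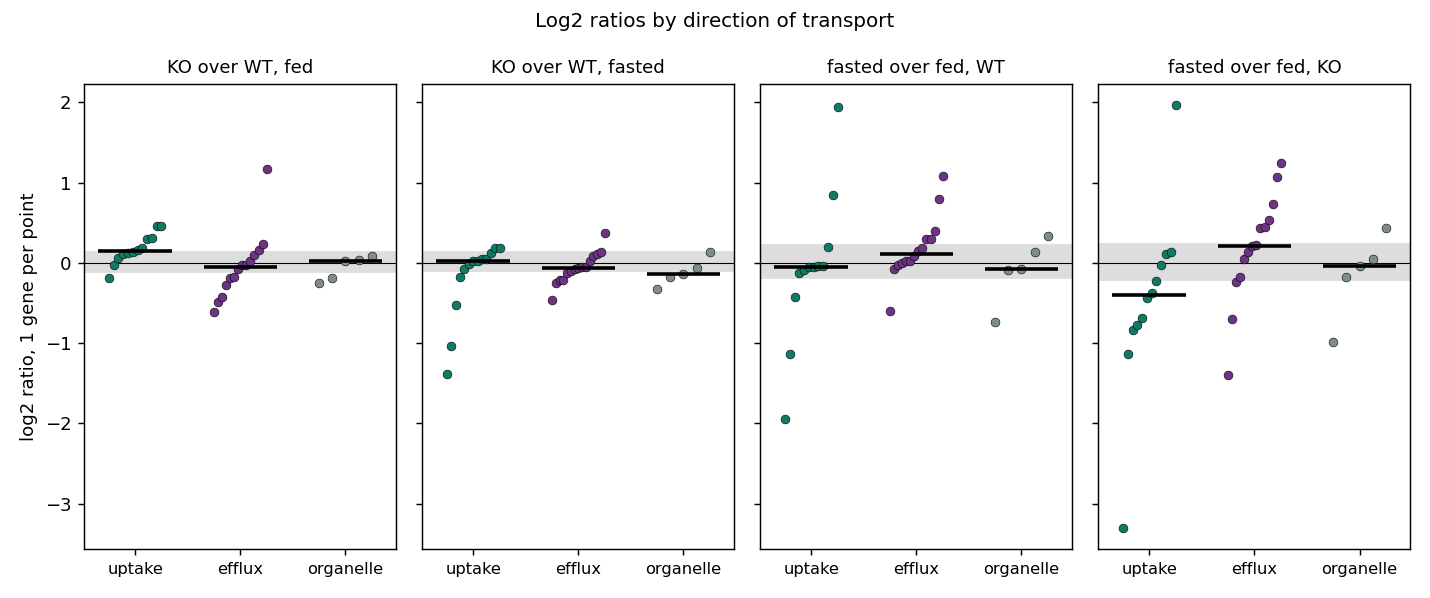
Log2 ratios (vertical axis) of uptake carriers, exporters and organelle carriers in the 4 comparisons named above the panels, with 1 point for each gene and a black bar at the group median. The grey band spans the quartiles of all measured genes. In the panel for fasting in KO liver the uptake median is -0.41 and the exporter median 0.22.

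Partner genes were read from lists of bile salt carriers, other ABC genes, regulators, membrane scaffolds and conjugating enzymes. Their counts stand beside the shares of all measured genes past 2-fold, which were 0.554% (fed) and 0.791% (fasted) between KO and WT, and with fasting 4.28% in WT and 4.68% in KO. Of the bile salt carriers none of 8 measured in fed and of 7 in fasted liver differed 2-fold between KO and WT. Slc10a1 (NTCP), the main bile salt uptake carrier, was 0.37 and 0.32 higher in KO, and Slc10a2 was lower after the fast by -1.66 in WT and -1.87 in KO. Of 18 measured other ABC genes none passed 2-fold with genotype, and with fasting Abca8a did in both genotypes (-1.0 and -1.44) and Abca3 in KO (-1.14).

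Of the regulators, 1 of 25 measured passed 2-fold in fed liver, Bcl6, a repressor that favours the male pattern of hepatic expression (KO over WT 1.14), and 0 of 26 in fasted liver, against 0.554% and 0.791% of all genes. Nr1i3 (CAR), a xenobiotic receptor that drives many transporter genes, was higher after the fast by 1.55 in WT and 2.03 in KO. Nr1i2 (PXR) read 10.54 in WT fed, 10.53 in KO fed, 11.15 in WT fasted and 10.53 in KO fasted liver, so that WT fasted stood above the other pools. Ppara, the fatty acid receptor of the fasting response, was likewise highest in WT fasted liver (12.40, 12.45, 13.39 and 12.66), with a fasted KO over WT ratio of -0.74.

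Among 29 conjugating and oxidising enzymes, 1 was 2-fold lower and 1 higher in fasted KO liver, against 0.432% and 0.359% of all genes. The former was Cyp3a11, a main drug-oxidising cytochrome and PXR target, at 15.70, 15.83, 15.50 and 14.45 in WT fed, KO fed, WT fasted and KO fasted liver, a KO over WT ratio of 0.13 fed and -1.05 fasted. The latter was Sult1e1, the oestrogen sulphotransferase, at 0.28 fed and 2.42 fasted. After the fast 6 of the 29 enzymes were at least 2-fold lower in each genotype, against 1.92% (WT) and 2.1% (KO) of all genes. The glutathione transferase Gsta1 was furthest (-3.72 in WT, -3.68 in KO). At least 2-fold higher were 1 in WT (Por, 1.62) and 3 in KO, against 2.36% and 2.59% of all genes. Those 3 were Sult1e1 (1.94), Sult1a1 (1.59) and Ugt3a1 (1.31). Of the scaffolds 0 of 9 measured passed 2-fold between fed KO and WT and 0 of 10 between fasted ones, and Pdzk1ip1 was lower after the fast in WT by -2.06 and in KO by -0.88. For comparison, 12 genes of fatty acid oxidation and other PPAR alpha targets were read. They were listed as fasting genes with earlier results of these data known, so their count is no separate result. At least 2-fold higher after the fast were 11 of 12 in WT and 10 of 12 in KO, against 2.36% and 2.59% of all measured genes.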

How the data were processed

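Pooled liver RNA of WT (Cy3) and CREBH KO (Cy5) mice was hybridised to 1 array for the fed and 1 for the fasted state, per the labels. The authors deposited spot and background intensity values per channel, as medians over pixels and not normalized, from Agilent Feature Extraction 10.10.1.1, per the file headers. A second set of intensity values in the same deposited files had undergone background subtraction, detrending and dye normalization. A log10 ratio of Cy5 over Cy3 with its error was also deposited from that software, and its deposited p-value, which rests on 1 spot, was not used. The authors' deposited value table holds log2 ratios within 0.005 of those log10 ratios, with a median of 0 in each column, so its scale and direction are known from the match and any further centring is not.

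Intensities were background-corrected (normexp, offset 50), loess-normalized within arrays and Aquantile-normalized between them with limma 3.58.1 in R 4.3.3, with 3671 control spots at weight 0 and outlier-flagged spots left out. Spots of a probe were averaged and the brightest probe stood for a gene. The procedure was tested on simulated data with known KO over WT changes within each array. The pass mark left out the changed probes that were dim, and no fasted over fed difference was checked. The simulation therefore does not speak for dim members or for the fasting comparisons. Of 55679 probes 26760 were named. A dim side was set to a bound as described at Slc22a21. Alternatives were the scanner-processed signals, the value table, other centrings, offset 10, no filter or a stricter filter on dim probes, the mean over probes and a 1.5-fold rule. All genes past 2-fold were named with 4 signals, as were the 3 highest and lowest members of each comparison, except that the values of 2 measured members are not reported here, although counts and medians include them. The members and lists were chosen with earlier results of these data known. Array number limits the precision, and no test was possible with 1 pool per group.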

Additional observations from a re-analysis of the deposited data

Results flagged for a closer look

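For 2 transporter genes the KO over WT ratios of the fed and fasted arrays had opposite signs and differed by more than 2-fold. Slco1a4 was higher in KO in fed liver (0.30) and lower in fasted liver (-1.39), a difference of -1.69 on the log2 scale. Slc22a7 was higher in fed liver (0.31) and lower in fasted liver (-1.03), a difference of -1.35. Both fed ratios were under 2-fold, and with 1 pool per group neither difference was tested. The signs were opposite under the other scalings too, including all-spot centring, where Slco1a4 had 1.05 and -0.80 and Slc22a7 1.46 and -0.31.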

How the results depend on the processing

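Of the 15 differences of 2-fold or more among members, those under 2-fold in an alternative were Slc22a7 (-0.31 with all-spot centring, -0.81 with measured-gene centring) and Slco1a4 (-0.80, all-spot) for fasted KO over WT, Abcb4 fasting in KO (0.98, all-spot), and Slc22a28 fasting in WT (-0.98 all-spot, -0.58 without between-array normalization) and in KO (-0.58 without it). All-spot centring gave 16 members past 2-fold in fed KO over WT, all higher, with a median of 0.79, and in fasted KO over WT 2 higher and 0 lower with a median of 0.57. It moved the medians to 0.08 (fasting, WT), -0.20 (fasting, KO) and -0.25 (fasted minus fed ratio). Measured-gene centring gave 2 members in fed and 1 in fasted KO over WT, with a fasted median of 0.07. Without between-array normalization the fasting medians were 0.48 (WT) and 0.39 (KO), and without a filter on dim probes the KO fasting median was 0.02. At 1.5-fold the counts were 2 (fed KO over WT), 8 (fasting, WT), 12 (fasting, KO) and 6 (fasted minus fed ratio). Some differences under 2-fold above passed it in an alternative. With the scanner-processed signals these included fasting of Slco1a4 in WT (1.06) and of Abcb10 (-1.05) and Abcc4 (1.21) in KO. The scanner-processed signals passed 1.53%, 1.57%, 7.74%, 9.08% and 3.01% of all genes in the 5 comparisons in the order fed, fasted, WT fasting, KO fasting and difference. The cause of these changes was not tested. No paired analysis was possible because each group holds 1 pool. Signals near background limit Slc22a6, Abcb1a, Abcc4, Slc22a13 and Abcc1.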
